A study of Homo sapiens with 25 samples.

Results

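The sequence described here lay in broad domains of PML, of lamin B1 (LMNB1) and of histone H3 trimethylated at lysine 9 (H3K9me3) at the same time, in the human triple-negative breast cancer line MDA-MB-231. Bins of 1 kb on chromosomes 1 to 22 that were in the PML list, the control LMNB1 list and the control H3K9me3 list were merged with their neighbours, and stretches of at least 100 kb were kept. The members were thus chosen by the authors' domain calls in these 3 lists. This gave 290 runs with a summed length of 400.4 Mb, against 420 PML domains with 970.2 Mb on the same chromosomes. The runs held 41.3% of the PML, 40.1% of the control LMNB1 and 64.3% of the control H3K9me3 domain length. These shares follow from the choice and were not tested. The shortest run was 200 kb long, and the 2 stretches under the length minimum were 85 and 1 kb long.

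The series comprised 25 chromatin immunoprecipitation (ChIP) sequencing libraries of this 1 line. Cells with PML silenced by a lentiviral short hairpin RNA and control cells each gave 2 libraries of LMNB1, H3K9me3, H3K4me3, H3K27ac and H3K27me3 and 1 input. The 3 PML libraries carry no condition in their titles, so the PML domains have no knockdown counterpart. The hairpin given to control cells is not stated in the labels. H3K27me3 and the inputs were not analysed here. Each target and condition had 1 deposited list and no value per replicate. Differences between the knockdown and control lists therefore have no replicate check, and no test of them was made. Read depth is unknown. Of 19 marker genes on these chromosomes, VIM, CD44, EGFR, AXL, CAV1 and ZEB1, which mark mesenchymal breast cancer cells, carried promoter peaks of H3K4me3 and H3K27ac in both conditions. The blood and endothelial markers PTPRC, PECAM1 and CDH5 and the epithelial cadherin gene CDH1 carried none, nor did GATA3, ELF5, ALB or CSN2. The luminal genes ESR1 and FOXA1 carried H3K4me3 in both conditions and PGR in the knockdown list, all without H3K27ac. The fibroblast genes COL1A1 and PDGFRB carried both marks in the knockdown lists, and in the control lists COL1A1 carried both and PDGFRB H3K4me3. The targeted gene, PML, had promoter H3K4me3 and H3K27ac folds of 58.3 and 11.3 in the knockdown lists, against 21.9 and 4.11 in the control lists; promoter marks do not measure the knockdown.

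PML is the scaffold of PML nuclear bodies, spherical structures that gather SUMO-modified proteins and histone chaperones. Lamin B1 is part of the lamina under the inner nuclear membrane, which contacts long, gene-poor, AT-rich stretches called lamina-associated domains. H3K9me3 is bound by HP1 proteins and marks constitutive heterochromatin and many clusters of repeated gene families. H3K4me3 marks promoters that are active or poised, and H3K27ac marks active promoters and enhancers.

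Most promoters in the runs were unmarked and poor in CG dinucleotides, and a minority was marked and CG-rich. To show both kinds, 300 bases around the gene start are given for 3 genes with the highest control H3K4me3 promoter folds in the runs (SVIP, TMEM260 and ORC5). They are also given for the first 3 eligible genes of the longest runs with no H3K4me3 or H3K27ac peak in any list (REG3G, REG1B and REG1A). Eligible genes had an entry in the sequence table with the same start. SVIP encodes an inhibitor of endoplasmic-reticulum-associated degradation and ORC5 a subunit of the origin recognition complex. The REG genes encode secreted C-type lectins of the gut and pancreas. The sequences are from RefSeq (GRCh38.p14), 5′ to 3′ on the strand of the gene, with each CG dinucleotide in capitals. SVIP lies at chr11:22829752-22830051 on the minus strand, TMEM260 at chr14:56579548-56579847 on the plus strand and ORC5 at chr7:104207964-104208263 on the minus strand. REG3G lies at chr2:79025452-79025751 on the plus strand, REG1B at chr2:79087944-79088243 on the minus strand and REG1A at chr2:79120238-79120537 on the plus strand.
SVIP: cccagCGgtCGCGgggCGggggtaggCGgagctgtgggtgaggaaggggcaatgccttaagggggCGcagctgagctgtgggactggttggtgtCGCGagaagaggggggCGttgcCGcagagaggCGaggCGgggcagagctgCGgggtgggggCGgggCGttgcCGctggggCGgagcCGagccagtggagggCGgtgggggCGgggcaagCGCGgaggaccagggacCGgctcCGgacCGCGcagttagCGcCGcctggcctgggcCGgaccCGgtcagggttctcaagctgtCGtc
TMEM260: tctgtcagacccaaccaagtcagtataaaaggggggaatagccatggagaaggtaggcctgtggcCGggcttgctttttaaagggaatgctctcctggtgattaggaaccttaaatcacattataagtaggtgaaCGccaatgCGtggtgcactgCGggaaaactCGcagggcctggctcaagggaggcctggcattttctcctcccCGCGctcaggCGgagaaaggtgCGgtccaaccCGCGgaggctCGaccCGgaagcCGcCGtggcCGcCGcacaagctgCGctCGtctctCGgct
ORC5: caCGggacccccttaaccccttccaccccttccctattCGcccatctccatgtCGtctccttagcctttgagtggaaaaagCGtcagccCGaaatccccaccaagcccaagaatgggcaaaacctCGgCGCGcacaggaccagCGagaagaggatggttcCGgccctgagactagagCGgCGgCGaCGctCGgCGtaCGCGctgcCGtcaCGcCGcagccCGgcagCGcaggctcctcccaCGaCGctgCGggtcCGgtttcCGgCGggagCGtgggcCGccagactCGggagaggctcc
REG3G: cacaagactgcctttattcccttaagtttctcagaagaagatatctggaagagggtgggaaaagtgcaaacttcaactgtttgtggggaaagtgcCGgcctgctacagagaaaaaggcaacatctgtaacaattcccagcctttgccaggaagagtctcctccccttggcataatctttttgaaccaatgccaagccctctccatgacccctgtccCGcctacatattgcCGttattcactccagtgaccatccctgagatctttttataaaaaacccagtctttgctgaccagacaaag
REG1B: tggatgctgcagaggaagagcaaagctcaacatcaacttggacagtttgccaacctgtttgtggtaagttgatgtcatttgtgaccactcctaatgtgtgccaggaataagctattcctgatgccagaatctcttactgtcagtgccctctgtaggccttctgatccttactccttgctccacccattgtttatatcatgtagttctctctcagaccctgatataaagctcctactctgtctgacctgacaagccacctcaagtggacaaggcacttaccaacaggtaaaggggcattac
REG1A: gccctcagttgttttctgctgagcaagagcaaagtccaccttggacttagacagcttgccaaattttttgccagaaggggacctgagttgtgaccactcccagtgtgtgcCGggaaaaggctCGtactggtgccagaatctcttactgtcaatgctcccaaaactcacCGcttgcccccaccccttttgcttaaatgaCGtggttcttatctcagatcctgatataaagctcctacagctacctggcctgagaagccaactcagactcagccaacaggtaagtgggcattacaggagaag

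The SVIP, TMEM260 and ORC5 promoters held 31, 20 and 32 CG dinucleotides in these 300 bases. The REG3G, REG1B and REG1A promoters held 3, 0 and 4, and all 3 of them held the letters TATAAA, searched on both strands; among the marked promoters TMEM260 held them too. Over all 19111 protein-coding genes of these chromosomes the median was 23 CG dinucleotides per promoter. The 1085 genes that started in the runs had a median of 5, which split into 21 for the 237 with an H3K4me3 peak in the control list and 3 for the 816 with no peak of either mark in any list. Outside the runs the corresponding medians were 28 and 7. TATAAA was present in 25.9% of promoters in the runs, against 9.74% of all coding promoters. Its share was 5.91% at the H3K4me3-marked and 30.9% at the unmarked promoters of the runs, and 4.84% and 16.8% outside the runs. Of the 281 promoters of the runs with TATAAA, 98 belonged to olfactory receptor genes. GGGCGG, searched on both strands, was present in 33.1% of promoters in the runs, against 61.7% of all. It was present in 67.9% of the marked and 22.7% of the unmarked promoters of the runs, and in 77.0% and 36.6% outside the runs. These are matches of letters and not sites of binding. Promoters in sequence that kept H3K9me3 in the knockdown list had a median of 6 CG dinucleotides, and those in sequence that did not had 4.

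After PML knockdown the runs stayed in LMNB1 domains and mostly left H3K9me3 domains. Of the run length, 95.3% was in the knockdown LMNB1 list and 30.9% in the knockdown H3K9me3 list. Both lists together covered 29.3% and neither covered 3.05%. Over the whole control lists, 90.4% of LMNB1 and 44.9% of H3K9me3 domain length was in the knockdown list of the same target. The H3K9me3 share was thus lower in the runs than in the rest of the control H3K9me3 list, where 69.9% was kept. In LMNB1 and H3K9me3 sequence without PML 63.7% was kept. These sets differed in GC content. Sequence with 42% GC or above in the surrounding 500 kb made up 15.9% of the runs, 64.2% of that rest and 48.1% of the sequence without PML. For LMNB1 the rest of the control list kept 87.1%. By length, 264.3 Mb of the runs stayed in LMNB1 domains alone, 117.3 Mb in both, 6.54 Mb in H3K9me3 alone and 12.2 Mb in neither. Because all runs were in both control lists, the knockdown lists could only keep or miss them. The knockdown H3K9me3 list was shorter as a whole, with 356.2 Mb against 622.9 Mb in the control list, and its bounds lay on a 35 kb grid against 23 kb. Fewer calls in that library and less of the mark cannot be told apart with 1 list per condition.

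Runs were mostly covered in full or not at all. Of the 290 runs, 168 had no knockdown H3K9me3 coverage, 50 were covered throughout and 72 in part. For LMNB1, 202 runs were covered throughout, 28 had no coverage and 60 were covered in part. With a run called kept where at least 50% of its length was covered, 170 runs kept LMNB1 alone, 92 kept both, 11 kept H3K9me3 alone and 17 kept neither. Runs that kept LMNB1 alone were longer, with a median of 1122 kb, than runs that kept both, with 847 kb, neither, with 473 kb, or H3K9me3 alone, with 414 kb.

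GC content differed between the states, with overlapping ranges. Runs that kept LMNB1 alone had a median GC content of 37.9% (34.5 to 42.8%), and runs that kept both had 41.3% (37.2 to 48.8%). The median was 40.9% for runs that kept H3K9me3 alone and 39.6% for runs that kept neither. Across the 290 runs, the share in knockdown H3K9me3 rose with GC content (Spearman's rho 0.72, Pearson's r 0.72). It also rose with the authors' control H3K9me3 domain score per Mb (rho 0.56). It had almost no rank correlation with the PML domain score per Mb (rho -0.0053) or with run length (rho -0.11). The share in knockdown LMNB1 had a rho of -0.26 with GC content. Runs on 1 chromosome, and runs cut from 1 domain, share their surroundings, and all values come from the same lists, so these coefficients are descriptions.

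**Figure D1:**
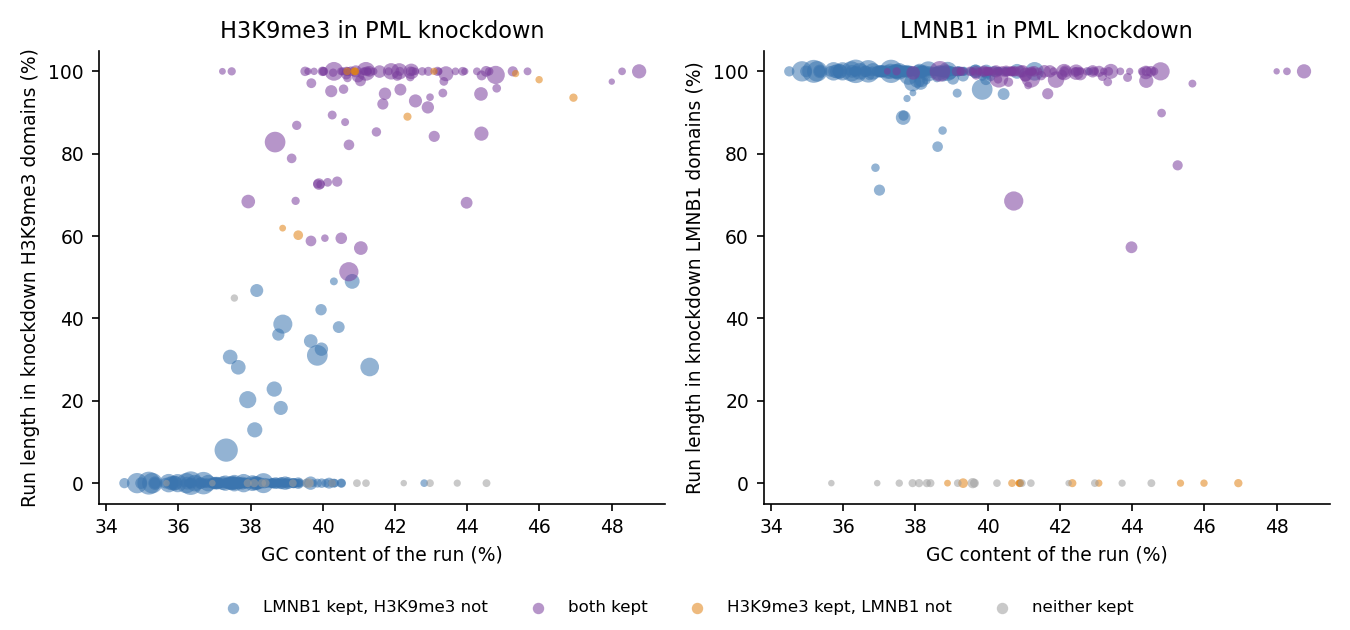
Each point is 1 of the 290 runs, with its GC content (%) on the x axis, its share of length (%) in knockdown H3K9me3 domains (left) or knockdown LMNB1 domains (right) on the y axis, an area that grows with its length, and a colour for its state at 50% coverage. Most runs lie at 0 or 100% H3K9me3, with the 170 runs that kept LMNB1 alone at a median GC content of 37.9% and the 92 that kept both at 41.3%, while LMNB1 coverage is near 100% over most of the GC range.

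At similar GC content the runs kept H3K9me3 at shares close to or above those of other H3K9me3 domains, and at 38% or above they kept LMNB1 at higher shares than sequence with LMNB1 and 1 of the other 2 signals. Regional GC content was the mean over the surrounding 500 kb. In the runs, 1.27% of the length with a regional GC content under 36% kept H3K9me3, and 88.3% of that at 42% or above did. In control H3K9me3 domains outside the runs, 88.4% was kept at 42% or above. Between 38 and 39% GC the shares were 9.40% in the runs and 9.28% in other H3K9me3 domains, and between 40 and 42% they were 65.0% and 54.5%. The mix of GC contents differed: sequence at 42% or above made up 15.9% of the run length and 64.2% of the other H3K9me3 domain length.

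For LMNB1, the share kept at a regional GC content of 42% or above was 88.2% in the runs, 67.8% in LMNB1 and H3K9me3 sequence without PML and 62.9% in PML and LMNB1 sequence without H3K9me3. Between 39 and 40% the shares were 93.7%, 72.3% and 76.2% in the same order. Between 37 and 38% they were 98.8%, 99.0% and 90.5%, so there the runs did not exceed the sequence without PML, which came to 2.73 Mb. These sets, cut by the same rule, comprised 153 stretches with 74.4 Mb without PML and 265 stretches with 467.1 Mb without H3K9me3. LMNB1 was kept less often near the ends of control LMNB1 domains. In a comparison added after these shares were seen, sequence at least 200 kb inside a control LMNB1 domain kept LMNB1 over 97.2% of its length in the runs, 79.7% without PML and 94.5% without H3K9me3. In that inner sequence under 38% GC, the shares were 99.5%, 100% and 96.1%, and at 42% GC or above they were 93.2%, 76.4% and 76.2%, and the last of these rested on 1.24 Mb. Within 200 kb of the domain end they were 81.1%, 60.4% and 75.7% over all GC contents. The 32 stretches of PML and H3K9me3 without LMNB1 were short in sum, 14.9 Mb, and 9.21% of their length was in knockdown LMNB1 domains and 56.5% in knockdown H3K9me3 domains.

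**Figure D2:**
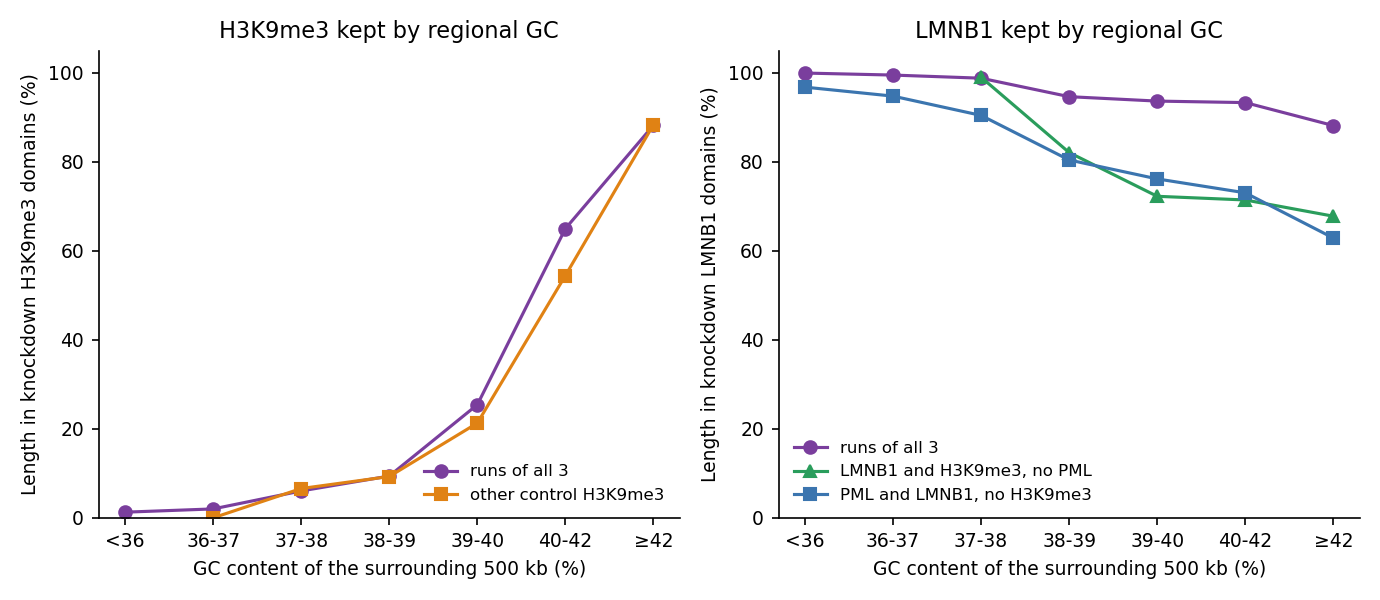
The x axis gives the GC content (%) of the surrounding 500 kb in 7 classes and the y axis the share (%) of the control sequence in that class that lay in knockdown H3K9me3 domains (left) or knockdown LMNB1 domains (right); classes with under 1 Mb are left out. For H3K9me3 the runs and the other control domains both climb, to 88.3% and 88.4% at 42% GC or above, and for LMNB1 the runs reach 88.2% there, above 67.8% without PML and 62.9% without H3K9me3.

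Chromosomes differed widely in H3K9me3 and little in LMNB1. The runs took up 36.7% of chromosome 16 and 33.7% of chromosome 11, and 1.88% of chromosome 4. The share of run length in knockdown H3K9me3 was 0% on chromosome 4, had a median of 21.9% and was 99.4% on chromosome 22. It exceeded 50% on 5 chromosomes, namely 22, 19 (83.3%), 16 (63.1%), 20 (61.1%) and 17 (53.3%). The runs of these 5 chromosomes had GC contents of 45.7%, 43.4%, 40.8%, 41.4% and 40.6% in that order, against 38.9% for all runs. The LMNB1 share was 75.5% on chromosome 4 and 80.1% on chromosome 19 and exceeded 90% on the other 20 chromosomes. Leaving out each chromosome in turn gave LMNB1 shares of 94.9 to 95.9% and H3K9me3 shares of 28.3 to 32.6%.

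**Figure D3:**
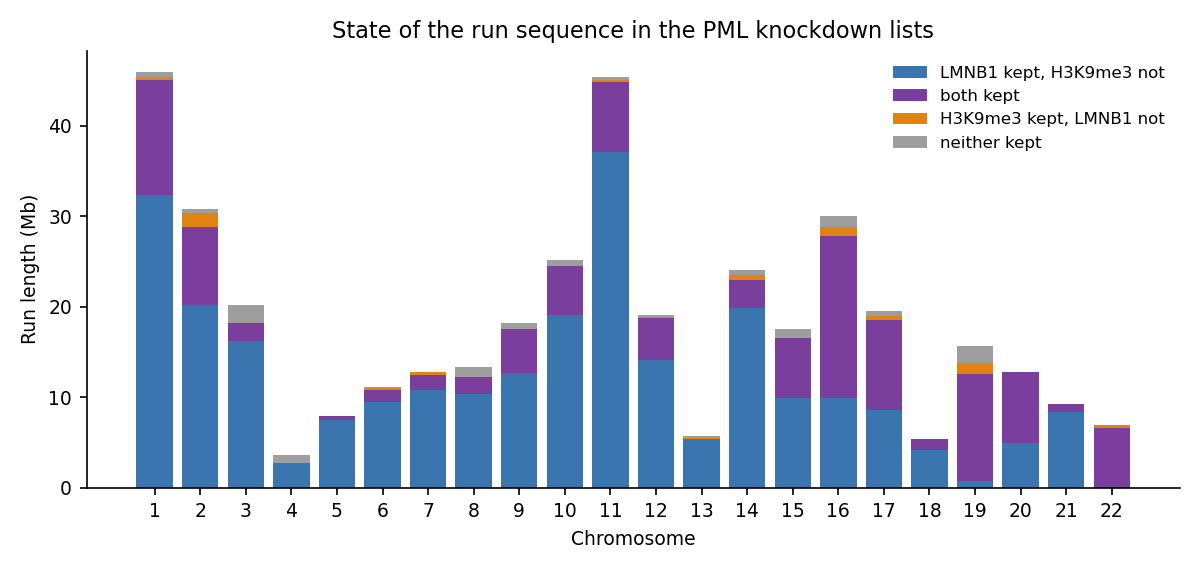
Bars give the run length (Mb, y axis) on each of chromosomes 1 to 22 (x axis), split by coverage in the PML knockdown lists. Chromosomes 1 and 11 hold the most, 46.0 and 45.4 Mb, mainly with LMNB1 alone, while the 15.6 Mb of chromosome 19 and the 6.94 Mb of chromosome 22 mainly kept both.

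The runs ended most often where PML or H3K9me3 stopped. Of 580 ends, 264 (45.5%) were ends of PML domains alone, 237 (40.9%) of H3K9me3 domains alone and 73 (12.6%) of LMNB1 domains alone. In the outer 50 kb of the runs 85.2% stayed in knockdown LMNB1, against 98.8% at 500 kb or more from an end. For H3K9me3 these shares were 31.8% and 27%. Coding genes were sparse inside and dense just outside, with 2.71 gene starts per Mb in the runs and 9.44 per Mb in the first 50 kb beyond their ends. H3K4me3 peaks numbered 2.83 per Mb in the knockdown and 2.17 per Mb in the control list in the outer 50 kb of the runs, and 9.72 and 8.02 per Mb in the first 50 kb outside.

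**Figure D4:**
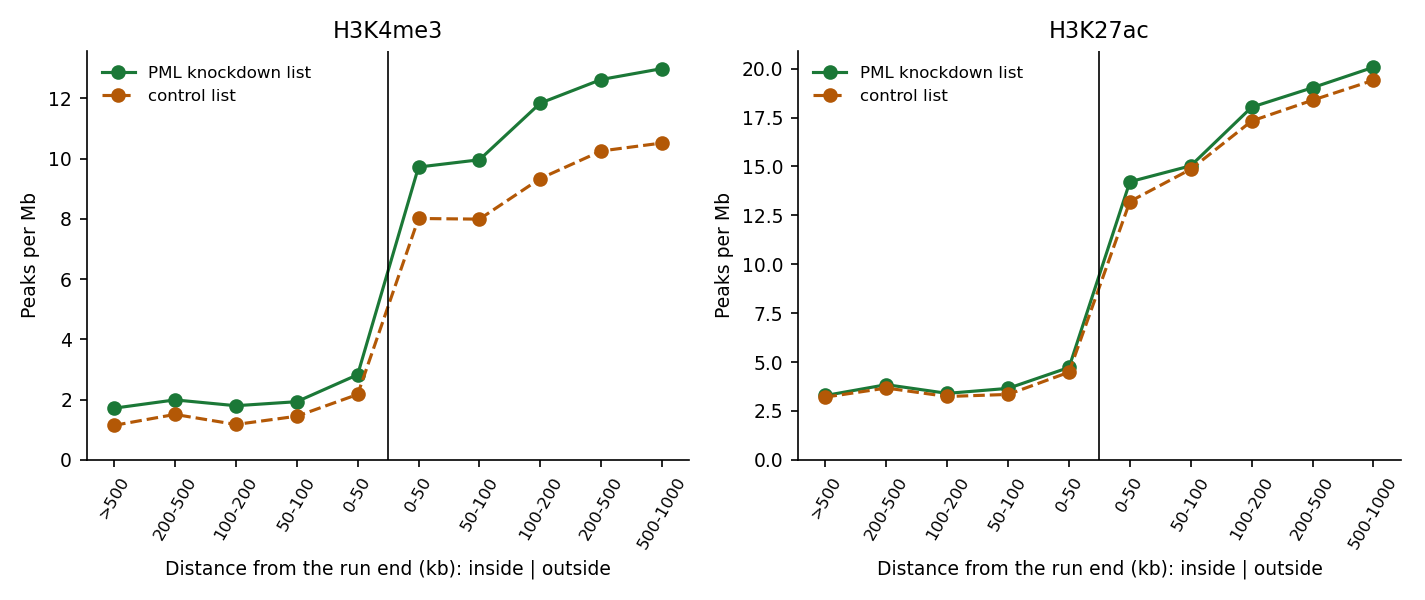
The x axis gives distance classes (kb) from the nearest run end, inside the runs left of the vertical line and outside right of it, and the y axis H3K4me3 (left) or H3K27ac (right) peaks per Mb in the PML knockdown list (solid) and the control list (dashed). Both marks step up at the end: H3K4me3 in the knockdown list has 2.83 peaks per Mb in the last 50 kb inside and 9.72 in the first 50 kb outside.

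The 8 longest runs kept LMNB1 and, with 1 exception, kept H3K9me3 over less than 50% of their length. The longest, chr2:75726001-83030000 (hg38), held LRRTM4 and LRRTM1, which encode synaptic leucine-rich-repeat adhesion proteins, the REG genes shown above and CTNNA2, the alpha-catenin of neurons. It was covered throughout by knockdown LMNB1 and not at all by knockdown H3K9me3. Of its 7 genes only CTNNA2, named after its values were seen, had a promoter peak, with H3K4me3 folds of 3.58 in the knockdown and 2.63 in the control list. The run at chr16:58797001-65916000 held the cadherin genes CDH8 and CDH11, had 8.02% of its length in knockdown H3K9me3 and kept LMNB1 throughout. CDH11, a mesenchymal cadherin, carried H3K4me3 folds of 31.3 in the knockdown and 30.3 in the control list and H3K27ac folds of 10.4 and 11. CDH8 carried no peak.

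Other long runs without knockdown H3K9me3 were chr21:18630001-25553000 with NCAM2, a neural cell adhesion molecule, chr11:36639001-43272000 with LRRC4C, a ligand of netrin G1, and chr14:39445001-44896000 with LRFN5 and FSCB. At NCAM2 the promoter H3K4me3 fold was 11 in the knockdown and 5.53 in the control list, and LRRC4C, LRFN5 and FSCB carried no peak. The run chr13:53415001-58765000 held the near-identical genes PRR20A, PRR20B, PRR20C and PRR20D and the protocadherin gene PCDH17, whose H3K4me3 folds were 16.9 in the knockdown and 6.75 in the control list. Reads from near-identical copies can be assigned to the wrong copy, so marks at PRR20, olfactory receptor, PSG and keratin-associated genes are uncertain between members. Folds of separate lists share no common scale: over all H3K4me3 peaks the median fold was 11.6 in the knockdown and 10.3 in the control list.

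The run chr9:114750001-120303000 kept LMNB1 over 95.6% and H3K9me3 over 31.0% of its length. It held TNC, which encodes the matrix protein tenascin C and is 1 of 2 genes of an 18-gene list of metastasis genes of this line that started in a run. TNC lay where LMNB1 was kept and H3K9me3 was not, with promoter H3K4me3 folds of 9.48 in the knockdown and 13.6 in the control list and H3K27ac folds of 9.96 and 8.34. PAPPA, which encodes a protease of insulin-like growth factor binding proteins, had H3K4me3 folds of 14.9 and 13.4 and H3K27ac folds of 8.31 and 7.37 in the same order. In the same run TNFSF15 had an H3K27ac promoter peak in the knockdown list only, with a fold of 4.70, and TNFSF8 had none; both encode cytokines of the tumour necrosis factor family and lay where neither domain was kept. The other metastasis gene, MMP2, a gelatinase, lay on chromosome 16 where both domains were kept and carried no peak.

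The exception among the 8 longest was chr17:51290001-56826000, which kept LMNB1 throughout and H3K9me3 over 82.8% of its length. CA10 and KIF2B, with no peak, lay in its part that kept both, while TOM1L1 and COX11, a copper chaperone of cytochrome oxidase, lay where LMNB1 alone was kept. COX11 had H3K4me3 folds of 122.4 in the knockdown and 47.0 in the control list, and TOM1L1 had 48.2 and 32.8. Other long runs that kept both were chr2:3753001-8262000 with SOX11, CMPK2, RSAD2 and RNF144A, and chr19:19703001-24201000 with 39 genes beginning with ZNF14, ZNF506, ZNF253 and ZNF93. In the chromosome 2 run 100% of the length stayed in H3K9me3 and no gene had an H3K4me3 promoter peak in the control list. In the chromosome 19 run the H3K9me3 share was also 100%, and 28 of the 39 genes had such a peak.

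Runs that did not keep LMNB1 had the lower median lengths given above, though 2 of them exceeded the median of all runs, 908.5 kb. The longest of the 11 that kept H3K9me3 alone were chr2:132838001-133773000 with NCKAP5, chr19:33534001-34128000 with CHST8 and KCTD15, chr2:29502001-30056000 with ALK, a receptor tyrosine kinase, and chr14:71859001-72387000 with RGS6, a regulator of G protein signalling. None of these genes had a promoter peak in any list. The longest of the 17 that kept neither were chr3:59449001-60559000 with no gene start, chr4:10642001-11367000 with CLNK, chr8:57429001-58004000 with FAM110B and chr1:172753001-173315000 with TNFSF18 and TNFSF4, ligands of T-cell costimulatory receptors. Of these genes FAM110B alone carried a peak, with H3K4me3 folds of 15.4 in the knockdown and 12.2 in the control list.

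Genes in the runs were few and mostly unmarked. Of 19111 coding genes, 1085 (5.68%) started in a run, which is 2.71 per Mb against 7.65 per Mb in the rest of these chromosomes. The density was lower still in LMNB1 sequence with 1 of the other 2 signals. It was 2.21 per Mb without H3K9me3 and 1.88 per Mb without PML. PML and H3K9me3 sequence without LMNB1 had 7.58 per Mb. No gene started in 81 runs, the median run had 1, and the highest number was 51. H3K4me3 was present at 253 promoters (23.3%) in the knockdown and 237 (21.8%) in the control list, against 64.4% and 62.5% of all coding promoters. H3K27ac was present at 193 (17.8%) in the knockdown and 184 (17.0%) in the control list, against 54.3% and 51.4%. In PML and LMNB1 sequence without H3K9me3 the H3K4me3 shares were 56.1% and 55.8% of 1033 genes. In LMNB1 and H3K9me3 sequence without PML they were 26.4% and 19.3% of 140 genes. At their start sites 414 of the 1085 genes (38.2%) stayed in H3K9me3, against 52.1% of all genes starting in control H3K9me3 domains. In LMNB1 947 (87.3%) stayed, against 83.5% of all genes starting in control LMNB1 domains.

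Olfactory receptors, which detect odorants and are expressed singly in sensory neurons, were the most numerous family. Of 414 genes on these chromosomes, 250 (60.4%) started in the runs, 127 of them on chromosome 11, 49 on chromosome 1 and 18 on chromosome 19. LMNB1 was kept at 231 of the 250 and H3K9me3 at 47. The chromosomes differed: H3K9me3 was kept at 3 of 127 genes on chromosome 11, 32 of 49 on chromosome 1, 12 of 18 on chromosome 19 and 0 of 14 on each of chromosomes 6 and 12. None of the 12 on chromosome 17 kept either. Examples that kept LMNB1 alone and carried no peak were OR10A7, OR10AG1, OR10C1 and OR10D3. A single olfactory receptor promoter had H3K4me3, OR52N2, with folds of 14.2 in the knockdown and 5.42 in the control list, and a single one had H3K27ac, OR14A2, with 6.01 and 4.82. Both were named after their values were seen. The median olfactory receptor promoter in the runs held 1 CG dinucleotide, and TATAAA was present in 39.2% and GGGCGG in 2.40%.

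ZNF genes, many of which encode DNA-binding repressors with KRAB domains that recruit H3K9 methylation, were the family of the runs with the most marked promoters. Of 503 genes, 110 (21.9%) started in the runs, 104 of them on chromosome 19, against 5.68% of all coding genes. H3K4me3 was present at 85 of the 110 in each list, and H3K27ac at 77 in the knockdown and 74 in the control list. Outside the runs H3K4me3 was present at 346 and 345 of 393. H3K9me3 was kept at 62 of the 110 and LMNB1 at 80. The promoter of ZNF317, where both were kept, had H3K4me3 folds of 68.0 in the knockdown and 55.3 in the control list, and ZNF431 had 41.8 and 50.4. ZNF121 had 49.4 and 26.1. ZNF112 kept LMNB1 alone, with 85.3 and 41.9, and ZNF134 kept neither, with 53.5 and 17.8. Of the 110 genes, 58 kept both, 22 LMNB1 alone, 4 H3K9me3 alone and 26 neither.

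Keratin and keratin-associated genes, which encode the filaments and matrix of hair and epithelia, split by chromosome. Of 94 keratin-associated protein genes 67 (71.3%) started in the runs, against 5.68% of all coding genes. All 34 on chromosome 17 kept both domains, and all 33 on chromosome 21 kept LMNB1 and not H3K9me3. The 14 keratin genes in the runs, of 55, lay on chromosome 17 beside the keratin-associated cluster and all kept both. H3K4me3 was present at 1 keratin-associated gene in the knockdown list and none in the control list, and at no keratin gene. H3K27ac was present at 10 keratin-associated genes in each list, 8 of them on chromosome 17. KRTAP2-1 had H3K27ac folds of 21.6 in the knockdown and 14.1 in the control list, KRTAP4-9 had 24.4 and 12.7, and the keratin gene KRT34 had 8.54 and 10.3. These 3 were named after their values were seen. KRT20, KRT23, KRT31 and KRT13 carried no peak.

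Of 37 synaptic and neuronal adhesion genes 18 (48.6%) started in the runs, against 5.68% of all coding genes, of which 13 kept LMNB1 alone and 5 kept both. CNTN3, CNTN4 and CNTN6, which encode contactins, and CNTNAP2, a neurexin-family protein, kept LMNB1 alone and carried no peak. H3K4me3 was present at 2 of the 18 in each list, NCAM2 and LRRN1, and H3K27ac at none. Of 41 glutamate and GABA receptor subunits 9 (22%) started in the runs and none was marked. GRIA1, a glutamate receptor gene, kept LMNB1 alone. Potassium channel genes had 7 of 94 (7.45%) in the runs, a share near that of all coding genes, all with LMNB1 alone, among them KCNA2, KCNA3 and KCNA4 without a peak. KCNH8 had an H3K4me3 peak in the knockdown list only, with a fold of 8.12.

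Of 22 CEACAM and PSG genes, which encode adhesion and pregnancy-specific glycoproteins, 11 (50%) started in the runs, against 5.68% of all coding genes. All 11 lay on chromosome 19 and kept both. PSG4 had an H3K4me3 peak in the knockdown list only, with a fold of 2.67, and CEACAM8, PSG1, PSG11 and PSG2 had none. Of 57 cytochrome P450 genes 11 (19.3%) started in the runs. The 5 CYP4F genes among them, on chromosome 19, kept both. CYP2J2, with H3K4me3 folds of 27.9 in the knockdown and 18.0 in the control list, and CYP7B1, with 4.52 and 4.83, kept LMNB1 alone and were named after their values were seen. Of 23 cadherin genes 5 (21.7%) started in the runs. Besides CDH11 only CDH4 was marked, with H3K4me3 folds of 20.4 in the knockdown and 4.14 in the control list. The CDH4 folds belong to different peaks, the knockdown peak downstream and the control peak upstream of the gene start, without overlap. The collagen gene COL11A1 (1 of 42) and APOB (1 of 18 liver secretory genes) kept LMNB1 alone and were unmarked. The 8 of 359 solute carrier genes (2.23%) that started in the runs, among them SLC17A6, SLC24A3 and SLC1A6, were unmarked. FOXA1, a pioneer factor of luminal breast cells, started in a run on chromosome 14, where LMNB1 alone was kept, and had H3K4me3 folds of 8.99 in the knockdown and 8.57 in the control list and no H3K27ac peak. None of 39 HOX, 84 histone, 53 clustered protocadherin, 18 PML nuclear body, 13 lamina and envelope, 14 H3K9 methylation and HP1 or 18 housekeeping genes started in a run. With 5.68% of all coding genes in the runs, the shorter of these lists could hold none at that share.

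**Figure D5:**
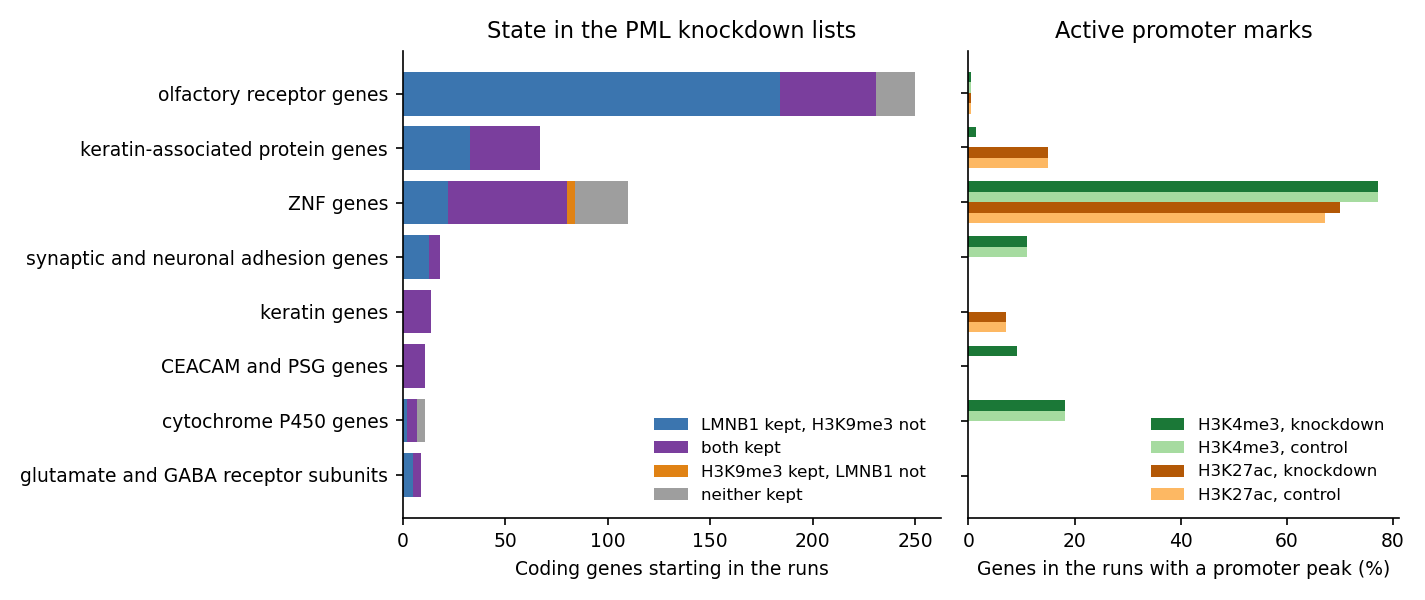
Rows are gene families; the left bars count the members that started in the runs (x axis, number of genes) by state in the PML knockdown lists, and the right bars give the share of those members (x axis, %) with a promoter peak of H3K4me3 or H3K27ac in each list. Of 250 olfactory receptor genes 184 kept LMNB1 alone, of 110 ZNF genes 58 kept both, and the ZNF genes stand apart with H3K4me3 at 85 of 110 promoters in each list.

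Apart from olfactory receptor, ZNF and keratin-associated genes, 658 of 18100 genes started in the runs. H3K4me3 was present at 166 of them in the knockdown and 151 in the control list. The 8 highest control H3K4me3 folds among genes of the runs marked in both lists included the ZNF genes ZNF317 and ZNF431 given above. The other 6 belonged to SVIP (56.6 in the knockdown and 63.1 in the control list), TMEM260 (51.2 and 58.9), ORC5 (61.8 and 58.2), COX10, a heme synthesis enzyme of mitochondria (119.7 and 55.2), EFR3A (56.1 and 52.2) and CCNG1, a p53-induced cyclin (81.2 and 49.2). Of these 6, TMEM260 kept both domains, and the other 5 kept LMNB1 alone. For H3K27ac the highest control folds were those of PFDN4, a subunit of prefoldin, with 62.7 in the knockdown and 84.9 in the control list, ZNF181 (37.0 and 44.8) and ZRANB2 (55.6 and 44.8). TMEM260, which kept both domains, had H3K27ac folds of 36.6 in the knockdown and 41.9 in the control list. DEPDC1 had 61.8 and 29.9, CSTF2T 45.3 and 34.1, TRNT1 34.2 and 27.8 and ZNF460 38.5 and 38.6. Over all members, most marked promoters had the mark in both lists.

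A few promoters were marked in 1 list. H3K4me3 was in the knockdown list only at 18 promoters of the runs, 1.66% of the 1085 genes, against 1.79% of all coding promoters, a share near the background. These shares are per gene, and fewer promoters were marked in the runs. Among promoters with H3K4me3 in the knockdown list they were 18 of 253 in the runs, against 343 of 12303 of all. The strongest of the 18 were ARHGAP20 (fold 11.5), CYRIA (9.15), KCNH8 (8.12), CADPS (7.84), CMPK2 (7.84) and AVPR1A (7.23). AVPR1A encodes a vasopressin receptor, CMPK2 a mitochondrial nucleotide kinase induced by interferon, CADPS a factor of vesicle priming and CYRIA a regulator of RAC1. Of the 18, 14 started where H3K9me3 was not kept and 4 where it was, against 671 and 414 of all genes in the runs. H3K4me3 was in the control list only at 2 promoters (0.184%), PTGER3 (3.15) and TMEM100 (3.09), against 0.0942% of all coding promoters. H3K27ac was in the knockdown list only at 12 promoters (1.11%), against 3.25% of all, and the strongest were ZNF530 (10.0), ZNF17 (5.74), CADM1 (5.38), LYRM9 with the overlapping ENSG00000266202 at the same start (5.25) and TNFSF15. It was in the control list only at 3 promoters (0.276%), ST6GALNAC3 (4.48), SPAG17 (3.33) and MCTP2 (3.19), against 0.67% of all. Among promoters with H3K27ac in the knockdown list, 12 of 193 in the runs had it in that list only, against 622 of 10372 of all. In the control list these counts were 3 of 184 and 128 of 9829. Apart from TNFSF15, the H3K27ac genes named here had H3K4me3 in both lists, at ZNF530 with folds of 75.6 in the knockdown and 11.4 in the control list.

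Counted as peaks, the runs held 762 H3K4me3 peaks in the knockdown and 541 in the control list, or 1.90 and 1.35 per Mb, against 11.1 and 8.92 per Mb in the rest. H3K27ac peaks numbered 1440 in the knockdown and 1381 in the control list, or 3.60 and 3.45 per Mb, against 17.4 and 16.9 per Mb in the rest. No H3K4me3 peak lay in 95 runs in either list, and no peak of any list in 47. Of the H3K4me3 peaks, 32.9% in the knockdown and 44.5% in the control list lay at coding promoters, against 46.9% and 60.4% in the rest. The peaks in the runs stood lower within their lists for H3K4me3 than for H3K27ac. Their median percentile by fold was 38.3 in the knockdown and 38.8 in the control list for H3K4me3, and 49 and 50.5 for H3K27ac.

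Of the knockdown H3K4me3 peaks in the runs, 267 (35%) overlapped no control peak, against 27% of all knockdown peaks. Of the control peaks 21 (3.88%) overlapped no knockdown peak, against 1.18% of all. The knockdown list was longer, with 26997 peaks against 21550, and with equal numbers of peaks per list the counts in the runs became 88 in the knockdown list only and 75 in the control list only. With a reciprocal overlap of 50% needed for sharing, the control-only count was 101. For H3K27ac 276 (19.2%) of knockdown and 179 (13.0%) of control peaks in the runs were in 1 list only, against 15.5% and 8.43% of all. With reciprocal overlap these counts were 447 and 388. The H3K27ac shares were 28.8% and 9.96% in the sequence without PML, 13.2% and 12.6% in that without H3K9me3 and 12.7% and 6.96% in that without LMNB1. Shares over all peaks were not computed for equal lists or reciprocal overlap, so those counts have no background.

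Peaks of either list were denser where H3K9me3 was kept, in the control lists only with 1 ZNF-rich run of chromosome 19 included. In the knockdown lists they numbered 2.22 per Mb there and 1.76 per Mb where it was not kept for H3K4me3, and 4.05 and 3.39 per Mb for H3K27ac. In the control lists these densities were 1.46 and 1.30 per Mb for H3K4me3 and 3.60 and 3.38 per Mb for H3K27ac. H3K4me3 peaks of the knockdown list alone numbered 158 in the 276.6 Mb that did not keep H3K9me3, or 0.571 per Mb, and 109 in the 123.9 Mb that kept it, or 0.880 per Mb. In the rest of the chromosomes they numbered 2.97 per Mb. For H3K27ac the densities were 0.604 and 0.880 per Mb. Of the peaks of the control list alone, 19 of 21 for H3K4me3 (0.0687 against 0.0161 per Mb) and 136 of 179 for H3K27ac (0.492 against 0.347 per Mb) lay where H3K9me3 was not kept. The GC content of the sequence that did not keep H3K9me3 was 37.6%, and that of the sequence that kept it was 41.9%; the part of GC content in these densities was not tested. Sequence that kept neither domain was the densest in peaks, with 9.73 H3K27ac peaks per Mb in the knockdown and 8.51 in the control list, and with 8.02 gene starts per Mb. It was 12.2 Mb long, and 26 of its 98 genes were ZNF genes.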

How the data were processed

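ChIP sequencing followed fixation of MDA-MB-231 cells with formaldehyde and disuccinimidyl glutarate, per the labels' protocols. Tools named without a role in the submitters' processing notes are deepTools, MACS2 2.2.7.1, Picard 1.104 and BWA 0.7.12-r1039, with hg38 as the build. The deposited domain lists give 1 score per domain, on a scale that is not stated, and their names point to the EDD caller. The deposited peak lists, in the MACS2 layout, give a fold enrichment (a ratio) and a -log10 q-value per peak, and the names of the peaks show that replicates 1 and 2 were used together. For domains, pooling of replicates is not stated. Peak lists marked ct and pml were read as control and PML knockdown, and LMNB1 and H3K9me3 domain lists with no mark as control; both readings are assumptions. Folds and scores are the authors' and were used to describe or rank within a list.

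Domain lists were set side by side in bins of 1 kb on chromosomes 1 to 22. The scripts used Python 3.11.15 with matplotlib 3.10.9, scipy 1.17.1, pandas 2.3.3 and numpy 2.4.6. All domain bounds lie on whole kb. Genes were GENCODE release 44 protein-coding genes, placed by the start of the Ensembl canonical transcript, and a promoter was 1 kb on either side of it. Peaks were placed by midpoint and shared when they overlapped by 1 bp. For a promoter marked in 1 list only, the other list had no peak there, and no peak there overlapped a peak of the other list elsewhere. Promoter composition was read from hg38 for all 19111 genes. The RefSeq table gave the same start for 13888 of them, with identical bases in all 13888, and was used for the printed sequences. The steps that cut runs and took kept shares were tested on simulated runs, and the peak overlap step was compared with bedtools on the H3K4me3 lists. No p-value was computed, and errors between replicates could not be given. The alternatives changed the run length minimum, bin and gap rules, trimming, joining, the coverage that counts as kept, promoter width, the q-value minimum, list size and the overlap rule.

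Members, gene lists and named genes were chosen with earlier results of these data known. Named genes were up to 4 genes of the 8 longest runs and of the 4 longest of each state, the 8 highest promoter folds per mark among genes marked in both lists, the 6 highest in 1 list only, up to 4 members per fixed list or family in symbol order, and PML and LMNB1. LMNB1 itself started outside the runs. A few genes under this rule are not reported here.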

Additional observations from a re-analysis of the deposited data

How the results depend on the processing

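No paired analysis was possible because each list covers its replicates together and holds no value per replicate. For the same reason leaving out a replicate could not be done. Of 286 values recomputed under the alternatives, 277 stayed within 1.5-fold for counts, the 95% binomial interval over runs or genes for percentages, or 1 SD over runs for GC content. For shares of length the interval took the 290 runs as separate trials, which they are not. It was wide, 25.8 to 36.7% for the H3K9me3 share, so staying within it is a weak check. Counting a bin with any covered base changed nothing because domain bounds lie on whole kb. A run minimum of 200 kb changed nothing because the shortest run had that length, and removing assembly gaps changed nothing either. The values of these settings are among those that stayed. Among runs of at least 500 kb, 4 kept H3K9me3 alone (11 among all runs) and 7 kept neither (17 among all). With peaks of a -log10 q-value of at least 5, control-only peaks in the runs numbered 12 for H3K4me3 and 113 for H3K27ac, against 21 and 179. With equal numbers of peaks per list, H3K4me3 peaks numbered 88 in the knockdown list only and 75 in the control list only, against 267 and 21, so that excess depends on list length. With a reciprocal overlap of 50%, control-only H3K4me3 peaks numbered 101, against 21. H3K27ac peaks then numbered 447 in the knockdown list only and 388 in the control list only, against 276 and 179. Under these peak settings the counts were made in the runs alone, so they cannot be set against a share over all peaks. Read depth is unknown and each condition has 1 list, so a domain or peak missing from a list was under the authors' threshold, which is not absence.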

Other observations

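MicroRNA hairpins were also present in the runs. Of 1461 hairpin genes on chromosomes 1 to 22, 62 (4.24%) started in a run, against 5.68% of coding genes. Of these, 36 lay where LMNB1 alone was kept in the knockdown lists, 24 where both domains were kept and 2 where neither was. They included MIR488, MIR186, MIR133B, MIR135A2, MIR128-2 and MIR744, which were named from the member list and not for their state.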
